A study of Mus musculus with 9 samples.

Results

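The levels of 9 fetal liver and liver tumour marker genes were followed across the livers of the series: Afp, H19, Igf2, Gpc3, Golm1, Ly6d, Dlk1, Igf2bp3 and Peg3. They were chosen by symbol, as genes that are active in the fetal liver or in liver tumours, and they are 9 of the 24411 genes in the table. Poly(A) RNA of 9 livers of C57BL/6 mice, 3 in each of 3 groups and 3 months old, had been sequenced. The mice of the cont. group carried Atg7flox/flox and no Cre recombinase. The Atg7-KO mice carried Atg7flox/flox together with Alb-Cre, in which the albumin promoter drives Cre, so that Atg7 is deleted in hepatocytes while other liver cells keep the gene. The third group, written in full as Atg7-KO;p62S351A and called S351A from here on, carried Atg7flox/flox, Alb-Cre and the p62 mutation S351A on both copies. All 3 groups therefore shared the floxed Atg7 alleles. The genotype field of S351A replicates 2 and 3 names S352A and S353A for one copy of p62, and the titles, which give S351A, were followed.

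Atg7 is needed to form autophagosomes, and p62 is an autophagy receptor that collects in bodies when autophagy is lost. The mutated serine of p62 is one whose phosphorylation strengthens the binding of KEAP1, the adaptor that marks the transcription factor NRF2 for degradation. Hepatoblasts and fetal hepatocytes make a set of proteins that adult hepatocytes shut off after birth, with Afp, the albumin relative of fetal plasma, as the best known. Several of these genes come back on in regenerating livers and in hepatocellular carcinoma, where AFP, GPC3 and GOLM1 are measured as tumour markers. Igf2, H19, Dlk1 and Peg3 are imprinted genes, which are read from one parental copy.

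Library totals were 1875314 to 15426566 counts in cont., 1945469 to 3675041 in Atg7-KO and 713835 to 792366 in S351A, so each S351A library was smaller than every other library, and depth and the p62 mutation cannot be told apart. The floor of a library was set at 3 counts, which came to 0.269 to 1.91 CPM for the cont. livers, 0.696 to 1.37 CPM for Atg7-KO and 3.45 to 3.73 CPM for S351A. CPM (counts relative to the library total) are given after TMM scaling. Atg7 itself was at 42.4 to 57.7 CPM in the cont. livers, 28.0 to 30.2 CPM in those of Atg7-KO and 21.8 to 24.8 CPM in those of S351A, with no overlap between cont. and the other groups. Hepatocyte markers such as Alb, Apoa1 and Ttr were abundant in every library, with summed levels of 28500 to 104000 CPM. The sex read from the counts was female in 1 of 3 cont., 2 of 3 Atg7-KO and 2 of 3 S351A livers. A gene was called when edgeR's quasi-likelihood test gave an adjusted p under 0.05 over the 11199 genes that passed the filter on low counts and the fold change was over 1.5. Of the 9 marker genes, 5 passed the filter: Afp, Gpc3, Golm1, Ly6d and Igf2bp3. H19, Igf2, Dlk1 and Peg3 did not, and they are given by their counts. The study describes the livers of a group as biological replicates.

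The promoters of Afp, Golm1, Gpc3 and Igf2bp3, called genes, are printed so that the start regions of genes that were higher together can be set side by side. Each runs from 250 bases before to 50 bases after the RefSeq start on GRCm38.p6, 5′ to 3′ on the strand of the gene, and 7 of the 9 genes, all but H19 and Ly6d, had such an entry. Capitals mark matches to 2 motifs that were searched on both strands. One is the core promoter motif TATAAA. The other is the core of the antioxidant response element, to which NRF2 binds, spelled TGACNNNGC. The windows are, for Afp chr5:90490464-90490763 (+), for Golm1 chr13:59675735-59676034 (-), for Gpc3 chrX:52613925-52614224 (-) and for Igf2bp3 chr6:49214905-49215204 (-).
Afp: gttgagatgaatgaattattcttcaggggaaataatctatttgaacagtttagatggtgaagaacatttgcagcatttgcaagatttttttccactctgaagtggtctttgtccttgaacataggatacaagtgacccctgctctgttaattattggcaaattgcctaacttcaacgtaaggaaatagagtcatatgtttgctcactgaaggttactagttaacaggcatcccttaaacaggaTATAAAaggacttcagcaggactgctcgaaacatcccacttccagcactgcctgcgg
Golm1: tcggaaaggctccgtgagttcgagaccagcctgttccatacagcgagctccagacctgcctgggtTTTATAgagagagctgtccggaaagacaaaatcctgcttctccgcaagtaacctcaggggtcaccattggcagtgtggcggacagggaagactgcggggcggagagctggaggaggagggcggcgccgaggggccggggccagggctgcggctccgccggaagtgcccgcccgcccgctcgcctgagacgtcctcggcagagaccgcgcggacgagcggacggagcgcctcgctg
Gpc3: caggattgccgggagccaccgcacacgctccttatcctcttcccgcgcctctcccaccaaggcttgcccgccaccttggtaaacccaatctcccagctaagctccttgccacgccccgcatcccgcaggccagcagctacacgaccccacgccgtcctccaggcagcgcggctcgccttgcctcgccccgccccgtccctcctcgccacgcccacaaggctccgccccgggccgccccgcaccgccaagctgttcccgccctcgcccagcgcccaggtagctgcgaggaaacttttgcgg
Igf2bp3: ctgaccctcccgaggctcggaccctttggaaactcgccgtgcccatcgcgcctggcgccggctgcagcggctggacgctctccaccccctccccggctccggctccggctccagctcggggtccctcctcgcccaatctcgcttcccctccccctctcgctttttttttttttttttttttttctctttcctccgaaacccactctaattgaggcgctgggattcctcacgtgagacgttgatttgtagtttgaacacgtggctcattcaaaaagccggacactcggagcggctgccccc

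Afp had the core promoter motif on its own strand, which begins 30 bases before the GENCODE start of the gene and at position -7 from the RefSeq start. The Golm1 window held the core promoter motif only on the opposite strand, 158 bases before the GENCODE start and at position -185 from the RefSeq start. Gpc3 and Igf2bp3 held no match to either motif. Of all 32851 promoters of the table, 13.6% held the core promoter motif and 12.4% the antioxidant response core. G and C made up 40.0% of the bases of the Afp window, against 60.3% for Igf2bp3, 67.0% for Golm1, 70.7% for Gpc3 and a median of 52.7% over all promoters. Among the marker genes the antioxidant response core was found in 1 window only, that of an Igf2 start, on the opposite strand. No match says only that these letters are not in the window.

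The first comparison asks which of the genes changed when hepatocytes lost Atg7. Afp, Gpc3, Golm1, Ly6d and Igf2bp3 were all higher in Atg7-KO than in cont., with fitted folds from 7.96 for Afp to 210 for Ly6d. All 5 tested genes were called, against 19.9% of all tested genes called higher. No cont. library reached the filter's level for any of the 5, which passed only through the groups where they are high, so this count and the median below are descriptions that the filter in large part fixes. Their groups did not overlap, against 26.7% of all tested genes with every Atg7-KO library above every cont. library. The median log2 fold change of the 5 was 3.92, against -0.03 over all tested genes. In bulk liver RNA, fewer cells of a type and less RNA per cell cannot be told apart. With library totals in place of TMM factors the median of all genes moves by 0.55 on the log2 scale, and the split of calls goes from 2226 higher and 2027 lower to 4284 higher and 801 lower. The 5 genes were called higher under both scalings.

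**Figure D1:**
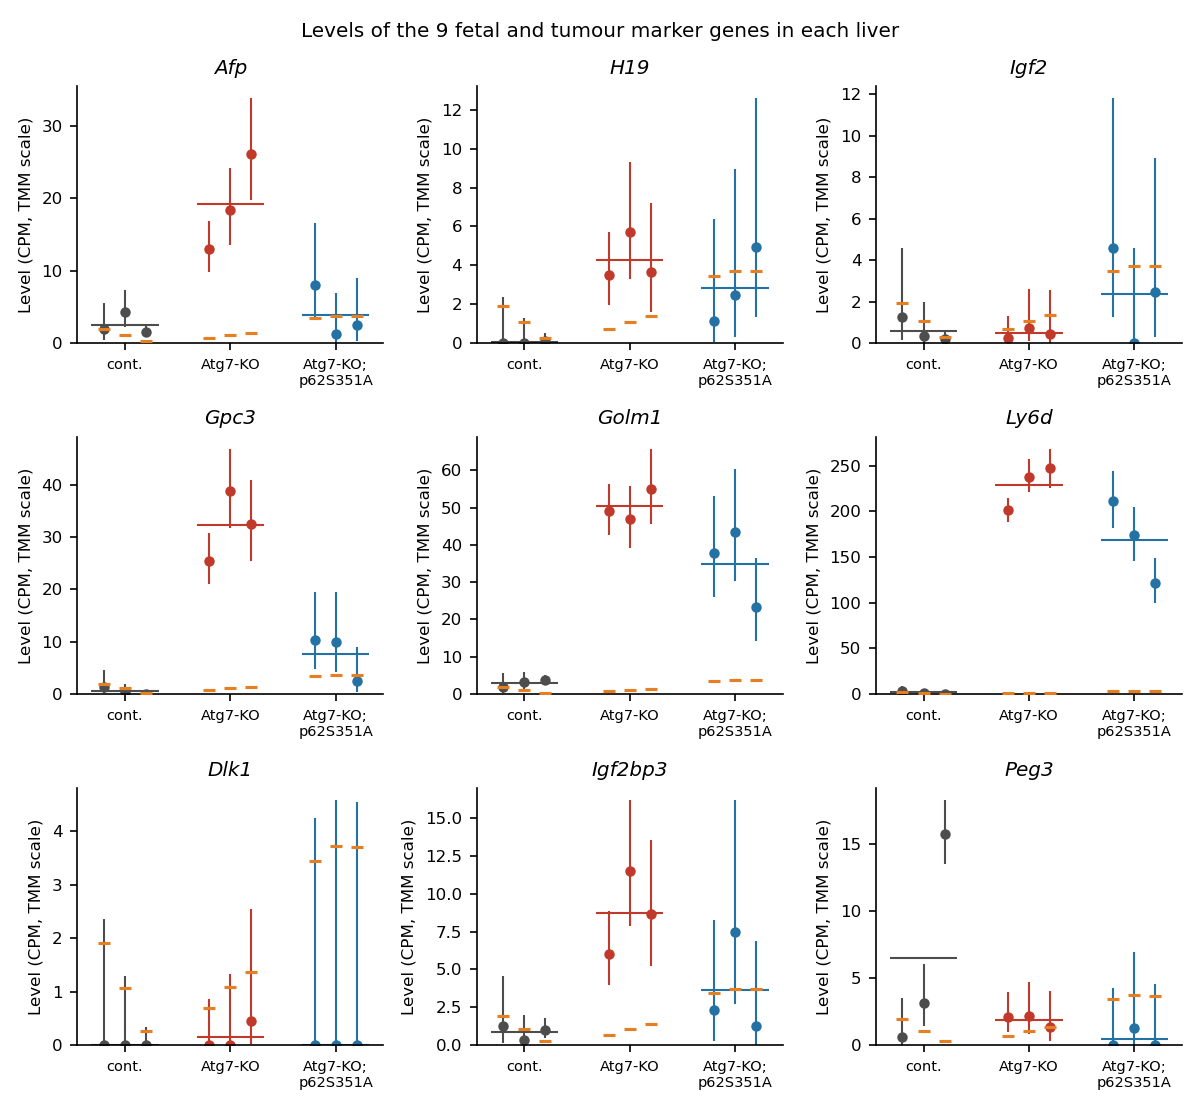
Level of each of the 9 marker genes in each liver, in CPM on the TMM scale (linear axes from 0), by group; points are livers with exact 95% counting intervals, long lines are group means and short orange marks are the floor of 3 counts in that library. Every Atg7-KO point of Afp, Gpc3, Golm1, Ly6d and Igf2bp3 lies above every cont. point, while in S351A many values of Afp, Igf2bp3, H19 and Igf2 lie at or under the floor.

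Afp (chromosome 5, 90490737 to 90508907 of mm10, + strand) encodes alpha-fetoprotein, the main plasma carrier protein of the fetus. It stood at 1.91, 4.23 and 1.52 CPM in the cont. livers (3, 12 and 17 counts), at 13.0, 18.3 and 26.1 CPM in the Atg7-KO livers (56, 51 and 57 counts) and at 8.04, 1.24 and 2.47 CPM in the S351A livers (7, 1 and 2 counts). All Atg7-KO livers were above all others, and the S351A livers spread across the range of cont., with replicate 1 above it and replicate 2 below it. Group means were 2.55 ± 1.46, 19.1 ± 6.58 and 3.92 ± 3.62 CPM (SD, n = 3 each). The log2 fold change of Atg7-KO over cont. was 2.99 (SE 0.49, 95% interval 1.92 to 4.06, adjusted p = 0.000577 by edgeR). S351A lay below Atg7-KO (log2 fold change -2.22, SE 0.58, interval -3.49 to -0.95), with an edgeR p of 0.00241 before and 0.402 after adjustment, and was not called. Without S351A replicate 1 this value was -3.32 and without S351A replicate 2 it was -1.82, not called in either case. S351A against cont. gave 0.77 (SE 0.72, interval -0.79 to 2.33, adjusted p = 0.453 by edgeR), and the groups overlapped. That value rests on S351A replicate 1, which holds 7 of the 10 counts of its group, and without it the log2 fold change was -0.34. Replicates 2 and 3 of S351A were under their floor.

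Gpc3 (chromosome X, 52272426 to 52613950, - strand) encodes glypican 3, a heparan sulfate proteoglycan anchored to the cell surface that is abundant in the embryo. Its levels were 1.27, 0.352 and 0 CPM in cont. (2, 1 and 0 counts), 25.5, 38.8 and 32.5 CPM in Atg7-KO (110, 108 and 71 counts) and 10.3, 9.93 and 2.47 CPM in S351A (9, 8 and 2 counts). The values of the 3 groups did not overlap, with S351A between cont. and Atg7-KO, but S351A replicate 3 is under its floor and its counting interval (0.299 to 8.92 CPM) overlaps that of cont. replicate 1 (0.154 to 4.59 CPM). Means were 0.541 ± 0.656, 32.3 ± 6.63 and 7.58 ± 4.43 CPM in cont., Atg7-KO and S351A (SD, n = 3 each). The cont. group held 3 counts in all, which makes the pooled ratio of Atg7-KO to cont. 162 with an exact 95% counting interval of 54.8 to 788. The log2 fold change fitted by edgeR was 7.00 (SE 0.68, adjusted p = 1.65e-05). The cont. level is near 0. Leaving out cont. replicate 1 moved the log2 fold change to 8.14 and leaving out cont. replicate 3 to 5.42, called in both cases. S351A was higher than cont. by 4.93 on the log2 scale (SE 0.90, adjusted p = 0.0019 by edgeR), with a pooled ratio of 39.7 (counting interval 11.7 to 209). Leaving out the same libraries moved that value to 6.06 (cont. replicate 1) and 3.35 (cont. replicate 3). Against Atg7-KO, S351A gave a log2 fold change of -2.07 (SE 0.51, interval -3.18 to -0.95) with an edgeR p of 0.00158 before and 0.364 after adjustment, and was not called.

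Golm1 (chromosome 13, 59634626 to 59675811, - strand) encodes a Golgi membrane protein, GP73, that is scarce in healthy hepatocytes. It was at 1.91, 3.17 and 3.76 CPM in cont. (3, 9 and 42 counts), at 49.2, 47.0 and 54.9 CPM in Atg7-KO (212, 131 and 120 counts) and at 37.9, 43.5 and 23.4 CPM in S351A (33, 35 and 19 counts). The 3 groups did not overlap, and S351A lay between the others. The group means were 2.95 ± 0.948, 50.4 ± 4.08 and 34.9 ± 10.3 CPM (SD, n = 3 each, same order). The log2 fold change was 3.92 (SE 0.28, adjusted p = 2.21e-06) in Atg7-KO over cont. and 3.40 (SE 0.30, adjusted p = 1.8e-05) in S351A over cont., both by edgeR, which are folds of 15.2 and 10.5. S351A against Atg7-KO gave -0.52 (SE 0.25, interval -1.06 to 0.01), with an edgeR p of 0.0549 before and 0.757 after adjustment. Golm1 shares 1297 exon bases with Naa35 on the opposite strand, and as the strand setting of the counting is not given, reads there cannot be told apart. Naa35 had a log2 fold change of -0.18 in Atg7-KO (adjusted p = 0.427 by edgeR).

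Ly6d (chromosome 15, 74762056 to 74763620, - strand) encodes a small GPI-anchored surface protein of the Ly6 family, known from early B-lineage cells and from stratified epithelia. It had 3.81, 1.41 and 0.269 CPM in the cont. livers (6, 4 and 3 counts). Its level was 201, 238 and 247 CPM in Atg7-KO (867, 664 and 539 counts) and 211, 174 and 122 CPM in S351A (184, 140 and 99 counts). Both Cre groups were far above cont., and they overlapped each other. Mean levels by group were 1.83 ± 1.81, 229 ± 24.2 and 169 ± 44.8 CPM (SD, n = 3 each). The log2 fold change over cont. was 7.71 (SE 0.59, adjusted p = 2.95e-06) in Atg7-KO and 7.28 (SE 0.59, adjusted p = 9.61e-06) in S351A by edgeR, folds of 210 and 155. These values also follow the cont. libraries. Without cont. replicate 1 they were 8.59 and 8.15, and without cont. replicate 3 they were 6.57 and 6.13. S351A against Atg7-KO gave -0.43 (SE 0.39, interval -1.27 to 0.40, adjusted p = 0.886 by edgeR).

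The cell types in which Ly6d is known were checked by their own markers. The B cell markers Cd79a, Cd79b and Ms4a1 did not pass the filter, and their summed level ran from 2.51 to 7.04 CPM in cont., against 6.03 to 9.15 CPM in Atg7-KO livers and 2.3 to 8.69 CPM in S351A livers. The stratified epithelium markers Krt5, Krt14, Krt17 and Trp63 summed to at most 0.0896 CPM in a cont., 2.55 CPM in an Atg7-KO and 3.45 CPM in an S351A liver, and none passed the filter. Their part in the Ly6d level was not tested.

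Igf2bp3 (chromosome 6, 49085223 to 49214957, - strand) encodes an RNA-binding protein of the embryo that binds Igf2 and other transcripts and returns in many carcinomas. Its levels were 1.27, 0.352 and 0.985 CPM in cont. (2, 1 and 11 counts), 6.03, 11.5 and 8.69 CPM in Atg7-KO (26, 32 and 19 counts) and 2.3, 7.45 and 1.23 CPM in S351A (2, 6 and 1 counts). Atg7-KO lay wholly above cont., and S351A replicate 2 fell within the Atg7-KO range while the other two S351A livers were near cont. The means came to 0.87 ± 0.47, 8.74 ± 2.73 and 3.66 ± 3.32 CPM (SD, n = 3 each). The log2 fold change of Atg7-KO over cont. was 3.24 (SE 0.54, adjusted p = 0.000654 by edgeR), a fold of 9.47. S351A over cont. gave 2.00 (SE 0.75, interval 0.38 to 3.63, adjusted p = 0.0621 by edgeR), which was not called, and without S351A replicate 3 it was 2.39 and was called (adjusted p = 0.0378 by edgeR), while without S351A replicate 2 it was 0.98 (adjusted p = 0.52 by edgeR). S351A against Atg7-KO gave -1.24 (SE 0.59, interval -2.52 to 0.04, adjusted p = 0.761 by edgeR), and -2.25 without S351A replicate 2. Igf2bp3 shares 1529 exon bases with Malsu1 on the opposite strand, whose log2 fold change was -0.54 in Atg7-KO (adjusted p = 0.115 by edgeR).

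**Figure D2:**
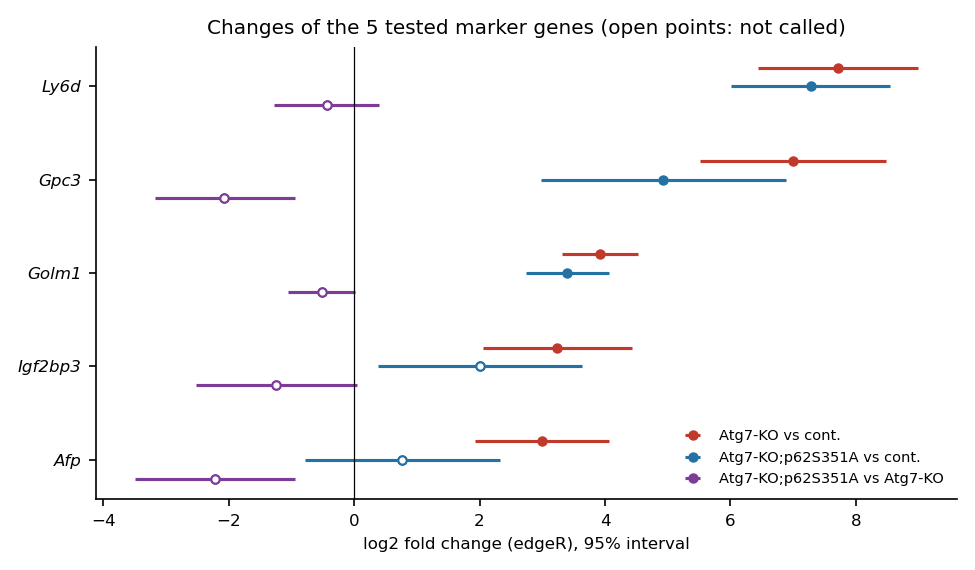
Log2 fold change of the 5 tested marker genes in the 3 comparisons (edgeR, horizontal axis, bars are 95% intervals), with filled points for called and open points for not called. All 5 are called in Atg7-KO against cont., Gpc3, Golm1 and Ly6d in S351A against cont., and none in S351A against Atg7-KO, where all 5 estimates are below 0.

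The second comparison asks what the p62 mutation changed in livers that lacked Atg7. None of the 5 tested genes was called in S351A against Atg7-KO by edgeR, while Afp and Gpc3 had an unadjusted p under 0.05. Over all 11199 tested genes edgeR called 1, which was lower, 0.00893%, and 739 (6.60%) had an unadjusted p under 0.05. DESeq2, which called 40 of the 11199 genes (0.357%), and limma-voom, which called 0, also called 0 of the 5. The 5 estimates were all negative, with a median of -1.24 against 0.01 over all tested genes. Afp, Gpc3 and Igf2bp3 would not have passed the filter without the Atg7-KO livers, which favours lower S351A values, so the signs, the median and the separation of groups are descriptions. For Afp, Gpc3 and Golm1 every S351A liver was below every Atg7-KO liver, 3 of 5 genes, against 9.23% of all tested genes. Counting intervals overlapped for Afp (S351A replicate 1 3.23 to 16.6 CPM, Atg7-KO replicate 1 9.81 to 16.9 CPM). They also overlapped for Golm1 (S351A replicate 2 30.3 to 60.4 CPM, Atg7-KO replicate 2 39.3 to 55.8 CPM), but not for Gpc3. Without S351A replicate 3 the Golm1 estimate was -0.31. Estimates ran from -2.22 for Afp and -2.07 for Gpc3 to -0.52 for Golm1 and -0.43 for Ly6d, and whether the genes differ from each other in this was not tested. When the filter on low counts was left out, Afp (log2 fold change -2.28, adjusted p = 0.0107) and Gpc3 (-2.13, adjusted p = 0.0016) were called lower by edgeR, with 0.514% of 19081 genes called in either direction.

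The third comparison sets S351A against cont., and shares the cont. libraries with the first. Gpc3, Golm1 and Ly6d were called higher, 3 of 5 tested genes against 15.6% of all tested genes, with a median log2 fold change of 3.40 against -0.03. As in the first comparison, the filter in large part fixes these values and the separation from cont. Groups did not overlap for Gpc3, Golm1 and Ly6d, against 19.6% of all tested genes. In the order of the levels, Atg7-KO had the highest mean for each of the 5 genes, S351A the middle one and cont. the lowest. The step from S351A to Atg7-KO was not called for any of them, and the step from cont. to S351A was not called for Afp and Igf2bp3.

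Of the imprinted genes, H19 (chromosome 7, 142575529 to 142578143, - strand), a long noncoding RNA that hosts Mir675 and is read from the maternal copy, was nearly silent in cont. with 0, 0 and 1 counts. The Atg7-KO livers held 15, 16 and 8 counts (3.48, 5.74 and 3.66 CPM) and the S351A livers 1, 2 and 4 counts (1.15, 2.48 and 4.94 CPM). Every Cre-positive liver was above every cont. liver, though 2 of the 3 S351A values are under their floor. The pooled ratio of Atg7-KO to cont. was 65.4 with a counting interval of 11.1 to 2650, that of S351A to cont. 43.9 (5.63 to 1980) and that of S351A to Atg7-KO 0.67 (0.253 to 1.52). H19 did not pass the filter. With no filter, edgeR called it higher in Atg7-KO (log2 fold change 5.33, SE 0.95, adjusted p = 5.44e-06) and in S351A over cont. (4.68, adjusted p = 0.00153), where 27.2% and 22.0% of 19081 genes were called in either direction, and not in S351A against Atg7-KO (-0.64, adjusted p = 0.917).

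Igf2 (chromosome 7, 142650766 to 142666816, - strand), the fetal growth factor whose gene lies beside H19 and is read from the paternal copy, was at or near its floor in every group. It had 2, 1 and 2 counts in cont., 1, 2 and 1 counts in Atg7-KO and 4, 0 and 2 counts in S351A. The group sums were 5, 4 and 6 counts, with each value at or under the floor of its library except the 4 counts of S351A replicate 1, so no fold of Atg7-KO over cont. is given and a change between these groups was not detectable at this depth. Relative to library size the S351A counts were higher, with pooled ratios of 7.52 to cont. (counting interval 1.91 to 31.1) and 5.6 to Atg7-KO (1.33 to 27), and S351A replicate 1 gave 4 of the 6 counts. With no filter edgeR did not call Igf2 in S351A over cont. (log2 fold change 2.39, adjusted p = 0.144, 0.0464 before adjustment) or over Atg7-KO (2.28, adjusted p = 0.787). Igf2 overlaps Gm49394, Mir483 and Igf2os. Dlk1 (chromosome 12, 109452823 to 109463336, + strand), a surface protein with EGF repeats that marks hepatoblasts, had 1 count in Atg7-KO replicate 3 and 0 in the other libraries. In Atg7-KO 3 counts would be 0.696 to 1.37 CPM, and levels under this cannot be seen.

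Peg3 (chromosome 7, 6703892 to 6730431, - strand), a zinc finger protein read from the paternal copy, had its highest level in a cont. liver. It had 1, 9 and 176 counts in cont. (0.636, 3.17 and 15.8 CPM), 9, 6 and 3 counts in Atg7-KO (2.09, 2.15 and 1.37 CPM) and 0, 1 and 0 counts in S351A. Replicate 3 of cont. holds 176 of the 186 cont. counts, and cont. replicate 1 lies below all the Atg7-KO livers, so the groups overlap. With no filter edgeR called Peg3 lower in Atg7-KO (log2 fold change -2.07, SE 0.56, adjusted p = 0.00279) and in S351A (-4.26, adjusted p = 0.00116) against cont. Without cont. replicate 3, a setting chosen after the data were seen, neither was called (-0.18, adjusted p = 0.926, and -2.31, adjusted p = 0.286, by edgeR).

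Other genes linked to the fetal liver and to liver tumours rose as well. Of 19 on a list of such genes, 11 passed the filter and all 11 were called higher in Atg7-KO over cont. (median log2 fold change 3.85), against 19.9% of all tested genes. For 7 of the 11 no cont. library reached the filter's level, so that they too passed through the groups where they are high. The 4 with the largest change were Spink1, a trypsin inhibitor made by many tumours (6.74, with 3 counts in the cont. group and 216 in Atg7-KO), Scd2, a fatty acid desaturase of the fetal liver (5.10), Sox4, a progenitor transcription factor (4.83), and Spp1, the matrix protein osteopontin (4.37). All 11 were also called higher in S351A over cont. (median 3.92), against 15.6% of all tested genes, and edgeR called 0 of them in S351A against Atg7-KO (median -0.27), with 1 at an unadjusted p under 0.05 and 0 called by DESeq2 or limma-voom. Several of these genes, such as Epcam, Sox9 and Spp1, also mark ductular cells. The 8 that failed the filter were not tested, and their mean levels in cont., Atg7-KO and S351A were 0.0299, 3.64 and 3.09 CPM for Bex1, 0.207, 3.69 and 1.18 CPM for Igdcc4, and 0.235, 1.46 and 1.59 CPM for Igf2bp1, a relative of Igf2bp3. They were 2.44, 3.67 and 4.07 CPM for Igf2bp2, 0.235, 0.633 and 2.42 CPM for Lin28b, 0.147, 0.385 and 3.56 CPM for Hmga2 and 0, 0.504 and 1.53 CPM for Sall4. Dkk1 had 0 counts throughout. With S351A floors of 3.45 to 3.73 CPM, the S351A means of these genes rest on a few counts each.

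**Figure D3:**
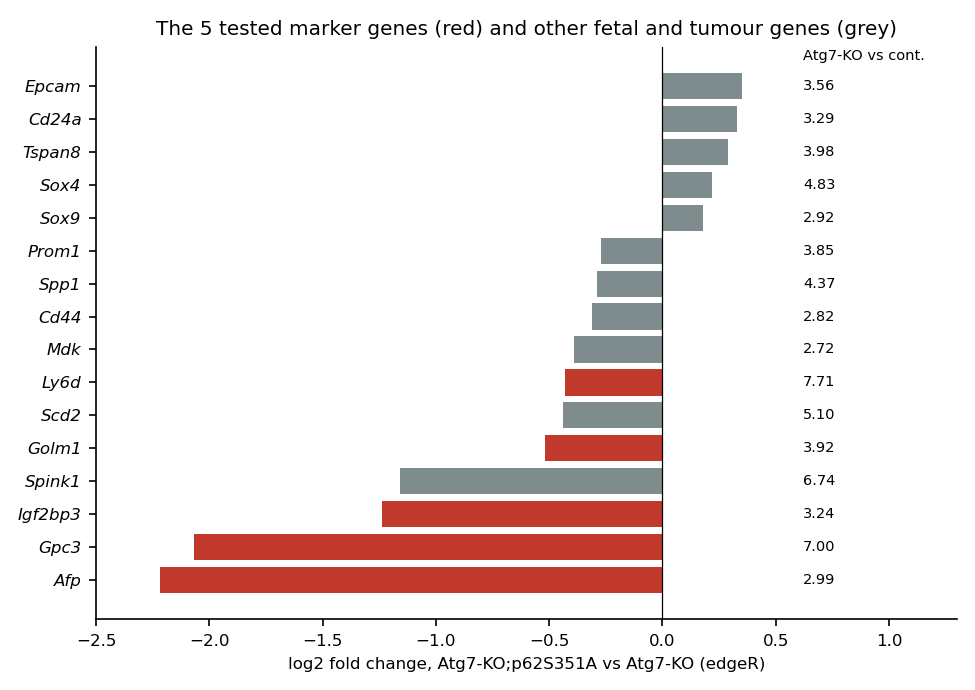
Log2 fold change of S351A against Atg7-KO (horizontal bars, edgeR) for the 5 tested marker genes in red and the 11 other tested genes of the fetal and tumour list in grey, with the log2 fold change of Atg7-KO over cont. printed at the right. None of the bars is a call, and Afp and Gpc3 have the longest bars, at -2.22 and -2.07, next to a list median of -0.27.

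Markers of other cells moved with these changes, and their counts stand against 19.9% of all tested genes called higher and 18.1% called lower in Atg7-KO over cont. Ductular markers were higher in Atg7-KO for all 5 tested (median log2 fold change 3.33), and their summed level was 47.5 to 83.3 CPM in cont., against 819 to 1210 CPM in Atg7-KO livers and 720 to 1200 CPM in S351A livers. Epcam, Sox9 and Spp1 are also on the fetal and tumour list, and most of the sum is Spp1 and Sox9, at means of 733 and 230 CPM in Atg7-KO. Stellate and mesenchymal markers were called higher for 6 of 7 (sums of 261 to 524, 1230 to 1690 and 1160 to 1640 CPM in the same order), and macrophage markers for 4 of 6 (205 to 304, 277 to 362 and 241 to 265 CPM). Proliferation genes were called higher for 5 of 5, with a median of 3.64 and sums of 10.7 to 18.4, 93.7 to 132 and 81.4 to 95.6 CPM. For 3 of the 5 ductular and 4 of the 5 proliferation genes no cont. library reached the filter's level, so the filter in large part fixes these counts and medians too. Hepatocyte markers were called lower for 5 of 6, with a median of -1.36. Endothelial markers were called higher for 1 and lower for 2 of 5, and with library totals for 1 and 0. Hepatocyte markers were then called lower for 4 and higher for 1, and of all 11199 tested genes 801 were called lower and 4284 higher. The erythroid gene Alas2 was lower (-3.27). The part of these cells in the levels of the marker genes was not tested. Ductular, stellate and proliferation sums overlapped between Atg7-KO and S351A, while the macrophage sums, like the levels of Afp, Gpc3 and Golm1, were lower in every S351A liver than in every Atg7-KO liver. The mean of Clec4f, a Kupffer cell gene, was 128 CPM in the Atg7-KO and 93.5 CPM in the S351A livers, and that of Adgre1 was 14.2 and 15.6 CPM. The erythroid sums went the other way, with 10.8 to 16.9 CPM in the Atg7-KO and 19.9 to 34.5 CPM in the S351A livers. edgeR called 0 of the 6 macrophage genes in that comparison, with 0 at an unadjusted p under 0.05 and 0 called by DESeq2 or limma-voom.

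**Figure D4:**
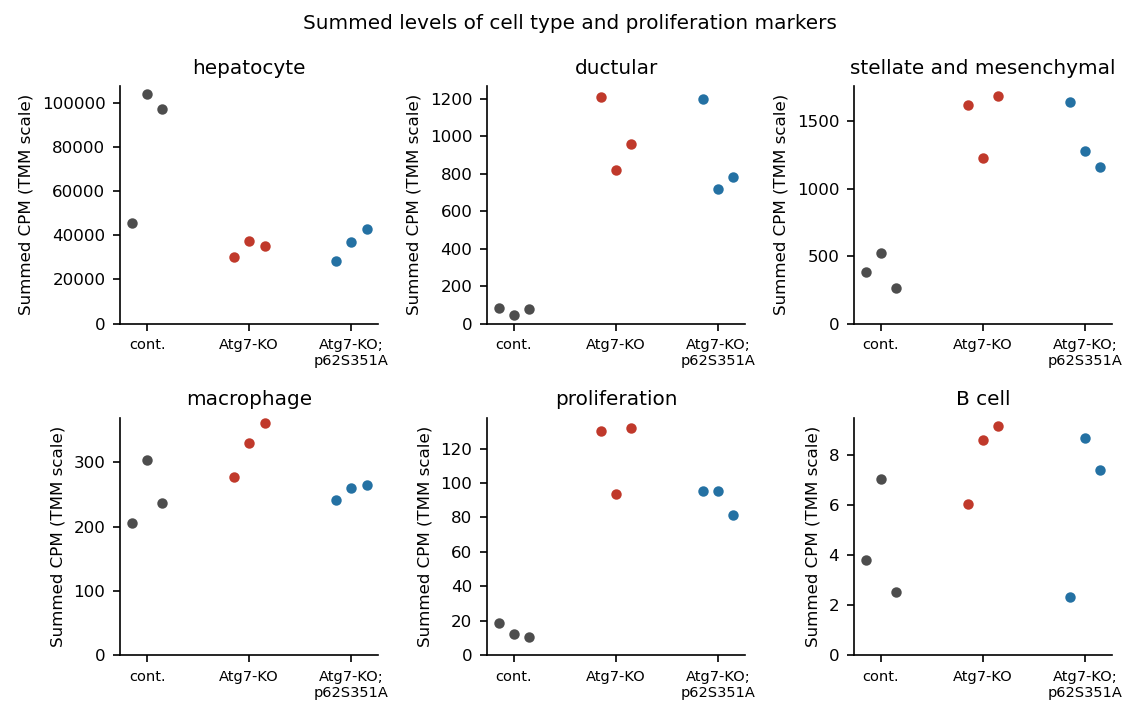
Summed level of cell type and proliferation markers in each liver (CPM on the TMM scale, linear axes from 0), by group. Ductular, stellate and proliferation sums of both Cre groups lie above all cont. livers, with S351A near Atg7-KO, and hepatocyte sums lie below.

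Known regulators of these genes were looked at next. Zhx2, the postnatal repressor of Afp, H19 and Gpc3 in mice, did not pass the filter. It had 87, 34 and 6 counts in cont., Atg7-KO and S351A, which are mean levels of 6.12, 3.56 and 2.42 CPM. Its levels overlapped between cont. (2.46 to 10.2 CPM) and Atg7-KO (2.15 to 4.41 CPM), and the S351A mean is under the floors of that group. The other repressors of Afp, Zbtb20 and Zfhx3, were not called in Atg7-KO over cont. (log2 fold changes 0.07 and 0.79). Of 14 tested regulators, Zfp57 (1.53), a guardian of imprints, was called higher, and Foxa2 (-0.98) and Trim28 (-0.98), a corepressor that works with Zfp57, were called lower, 3 calls against 38.0% of all tested genes called in either direction. Those not called were Foxa1 (0.00), Foxa3 (0.33), Hnf4a (0.38), Cebpa (-0.40), Cebpb (-0.40), Nr5a2 (-0.81), Trp53 (0.17), Ctcf (-0.40) and Dnmt1 (0.03). With library totals in place of TMM factors, 5 regulators were called higher and 0 lower, so the calls of Foxa2 and Trim28 depend on the scaling. Over all 11199 tested genes that scaling called 4284 higher and 801 lower. No cont. library reached the filter's level for Zfp57, which passed only through the groups where it is high. In S351A against Atg7-KO 0 of the 14 were called by edgeR, DESeq2 or limma-voom, and 0 had an unadjusted p under 0.05 in edgeR.

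Of 22 imprinted genes listed, 11 were tested, with 3 called higher in Atg7-KO over cont., Phlda2 (3.20), Sgce (1.64) and Igf2r (0.82), and 2 called lower, Meg3 (-2.18) and Slc38a4 (-1.51), and a median of 0.35. These 5 of 11 stand against 38.0% of all tested genes. With library totals the split was 7 higher and 1 lower, against 4284 higher and 801 lower of all 11199 tested genes. No cont. library reached the filter's level for Phlda2 and Sgce. The groups overlapped for Meg3, with 21.2 to 357 CPM in cont. and 30.9 to 55 CPM in Atg7-KO. Meg3, a noncoding RNA, is the nearest tested gene to Dlk1 on one side, at 77.7 kb. Of 9 tested ligands, receptors and binding proteins of the IGF system, Igf1r (2.42), the receptor through which IGF1 and IGF2 signal, Igfbp1 (1.58) and Igf2r, which removes IGF2, were called higher, and Igfbp2 (-2.29), Igf1 (-1.85) and Igfbp4 (-1.02) were called lower, 6 of 9 against 38.0% of all tested genes. With library totals the split was 4 higher and 2 lower, against the same 4284 and 801 of 11199 genes.

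Relatives and neighbours of the marker genes were compared in the same fit. Of 9 tested relatives, Ly6a (5.83), Ly6e (2.85) and Gpc1 (1.35) were called higher in Atg7-KO over cont. and the Afp relatives Alb (-1.17) and Afm (-2.30) were called lower, 5 of 9 against 38.0% of all tested genes. With library totals the split was 4 higher and 1 lower, against 4284 higher and 801 lower of all 11199 tested genes. Afp lies between Alb, 14.1 kb away (adjusted p = 0.0256 by edgeR), and Afm, 10 kb away (adjusted p = 3.72e-05 by edgeR), so of these 3 neighbouring genes of the albumin family Afp alone was called higher. Ly6d lies 9.0 kb from Lynx1, which rose by 4.95 (adjusted p = 5.5e-05 by edgeR), and 191.4 kb from Ly6e. Igf2bp3 lies 14.3 kb from Gpnmb, a glycoprotein of macrophages, which rose by 6.98 (adjusted p = 0.000412 by edgeR), with Tra2a at -0.10 on its other side. Gpc3 lies 107.2 kb from its relative Gpc4, which was not called (0.16), and Phf6 on its other side was at -0.17. Golm1 lies between Agtpbp1 (-0.33) and Isca1 (-0.68). The genes nearest to H19 and Igf2 that were tested were Mrpl23 (-0.18) and Cd81 (0.22). Those nearest to Peg3 were Zfp28, 307 kb away, which was called higher (1.40, adjusted p = 0.00219 by edgeR), and Zfp954 (-0.19).

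**Figure D5:**
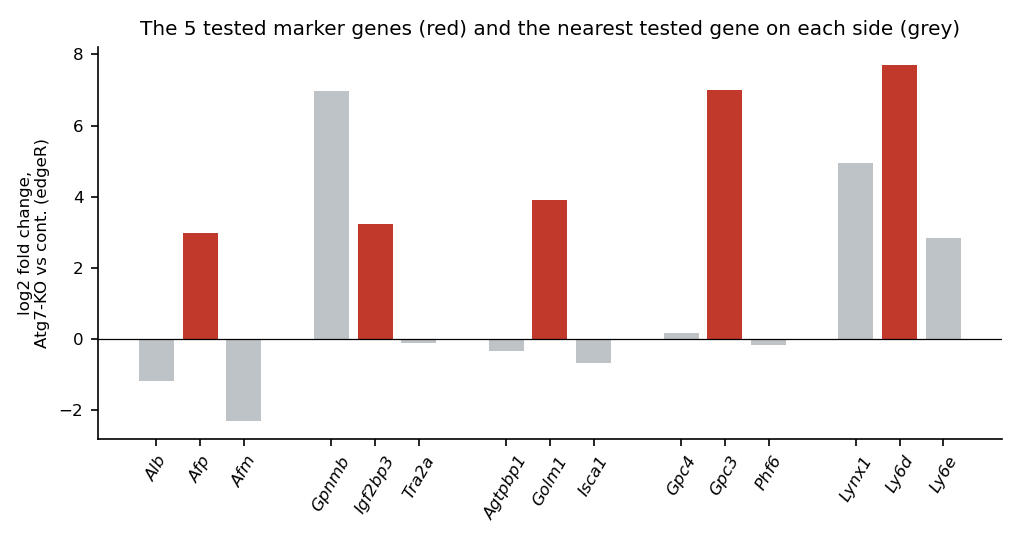
Log2 fold change of Atg7-KO over cont. (edgeR, vertical axis) for each of the 5 tested marker genes in red and the nearest tested gene on each side in grey. The neighbours of Gpc3 and Golm1 lie near 0 or just below, those of Afp below 0, and Gpnmb, Lynx1 and Ly6e rise beside Igf2bp3 and Ly6d.

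The genes whose pattern over the 9 libraries was most like that of each called gene were found by the root mean square difference of log2 CPM, centred per gene, as a description. Closest to Afp were Ier3 (0.66) and Fbln2 (0.69), and closest to Gpc3 were Panx1 (0.36) and Ggt1 (0.45). Golm1 was matched by Bcl2a1b (0.22) and Pdzk1ip1 (0.24), Ly6d by Slc1a1 (0.37) and Rsad2 (0.51), and Igf2bp3 by Irak3 (0.35) and Hbegf (0.38). Afp had the most distant closest gene of the 5.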

How the data were processed

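Poly(A) RNA of 9 mouse livers was read as 75-base single ends. The authors used Trim Galore for trimming, STAR for mapping (mm10) and RSEM for expected counts, which are estimated reads per gene and were deposited without scaling between libraries. Versions, annotation and strand setting are not given in the sources used here. Between 4.40% and 7.75% of the values per library were not whole, and all were rounded.

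Counts were fitted with edgeR 4.0.16 in R 4.3.3 (filterByExpr at min.count 10 and min.total.count 15, TMM factors, 1 quasi-likelihood model over all 9 libraries). A gene was called at a Benjamini-Hochberg adjusted p under 0.05 over 11199 genes and a fold over 1.5. SE are those implied by the p-value. DESeq2 1.42.0, limma-voom (limma 3.58.1), other scalings, filters and left-out libraries were alternatives. Counting intervals are exact. They and the floors hold only counting error and leave out the spread between livers. Within groups, squared differences between livers were on average 2.3 to 113 times those of counting alone. Pooled ratios sum the counts of a group, so its deepest library weighs most. Reads lack molecular identifiers and need not be separate molecules, so even the counting error may be too small. Libraries were grouped by their titles. Across genes, same-numbered libraries deviated together in cont. and S351A (r of 0.16 to 0.235, all 3 pairs over 0.1), a pairing read from the data and stated by no label, but not in every pair of cont. and Atg7-KO (-0.041 to 0.248) or of Atg7-KO and S351A (0.074 to 0.306). Some planned items, and list entries and a motif tied to them, are not reported here. All 9 marker genes, all other regulators and, from other lists, at most 4 called genes with the largest change are named. Further genes named from the lists, called or not, were chosen after their values were seen. The marker genes and lists were chosen with earlier results of these data known. Positions are from GENCODE M21 (mm10), promoters from RefSeq (GRCm38.p6), and 23376 of 24411 symbols matched.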

Additional observations from a re-analysis of the deposited data

How the results depend on the processing

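In Atg7-KO against cont., Afp, Gpc3, Golm1, Ly6d and Igf2bp3 stayed higher and called in every alternative in which they could be tested, with log2 fold changes of 2.47 to 3.55, 5.42 to 8.14, 3.78 to 4.50, 6.57 to 8.59 and 2.99 to 3.82. With every library thinned to 713835 counts, Afp and Igf2bp3 failed the filter on low counts. In Atg7-KO against cont. the 3 genes left were called, with 1350 of 8573 tested genes called higher. Gpc3 was then at 5.53 in that comparison and at 3.34 in S351A against cont. (adjusted p = 0.0302 by edgeR). Its value in S351A against Atg7-KO was -2.20 and was not called (adjusted p = 0.226 by edgeR). With no filter, 2 of the 9 genes were called in S351A against Atg7-KO, both lower, against 0.514% of 19081 genes. In S351A against cont. 5 were called, against 22.0% of 19081 genes. Of these, H19, Gpc3, Golm1 and Ly6d were higher and Peg3 was lower, and the Peg3 call was lost without cont. replicate 3. Leaving out 1 library at a time gave 5 to 6 calls in Atg7-KO against cont., 0 to 0 in S351A against Atg7-KO and 3 to 4 in S351A against cont., where H19 passed the filter in several of these fits. Over all 11487 to 11852 tested genes these fits called 3238 to 4530, 0 to 3 and 2098 to 3572 genes in the same order. Igf2bp3 in S351A against cont. was called with library totals (log2 fold change 2.52), with totals less the 20 most counted genes (2.41), with DESeq2 (2.10) and without S351A replicate 3 (2.39), and was at 0.98 without S351A replicate 2. Afp in S351A against cont. ran from -0.34 without S351A replicate 1 to 1.29 without cont. replicate 2. The cause was not tested. With the 6 compared libraries alone, 2 genes were called in S351A against cont., as Gpc3 did not pass the filter. That fit called 1085 of 9506 tested genes higher. Without cont. replicate 3 and with no filter, H19 remained called in Atg7-KO (6.13) and S351A (5.50). No gene of the 9 had 10 counts in every library, so that filter gave no value. With a replicate block 5, 0 and 3 genes were called in the 3 comparisons, against 4313, 1 and 3406 of all 11199 tested genes. The block changed no call of the tested genes. Sex as a covariate gave the same counts, against 4212, 1 and 3206 of all 11199 tested genes. The depth of S351A, with floors of 3.45 CPM and above, limits what can be said of Afp, Gpc3, Igf2bp3, H19 and Igf2 there.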
